A study of Mus musculus with 10 samples.

Results

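The immunoglobulin light chain genes were followed in poly(A) RNA of spleen T and B cells from mice after repression of Pou2f1 promoters. The members were the rows of the count table whose symbols begin with Igkv, Igkj, Iglv, Iglj or Iglc and a number, together with Igkc. This gave 178 of the 56893 rows, made up of 160 Igkv, 5 Igkj, 1 Igkc, 3 Iglv, 5 Iglj and 4 Iglc rows. Reads fell on 149 of the 178 rows, and 77 reached 5 CPM, a count scaled to the size of the library, in B cells, of which 66 were Igkv, 5 Igkj, 1 Igkc, 2 Iglv and 3 Iglc rows. None of the 178 reached 5 CPM in T cells.

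The 5 groups were T cells with the guide sgRNA-P1 and mock T cells, and B cells with sgRNA-P1, B cells with sgRNA-P2 and mock B cells. All were labelled as primary cells. The guides repress the P1 and P2 promoters of Pou2f1 by CRISPR interference, in which a dead Cas9 blocks a promoter without cutting it. The sources used here do not give the strain, age or number of the mice, the selection of the cells, the treatment of mock cells or how long the guides were present.

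Each antibody light chain is either kappa or lambda, and each is encoded by a V segment and a J segment that recombine in the developing B cell and are spliced to a constant exon. The mouse kappa locus on chromosome 6 holds many V segments, 5 J segments and the single constant exon Igkc, and the small lambda locus on chromosome 16 holds few V segments and several J and constant pairs. Promoters of V segments carry the octamer motif, which is bound by the Pou2f1 product Oct-1 and by its relative Oct-2, with the coactivator encoded by Pou2af1. Mature T cells rearrange T cell receptor genes and do not make light chains.

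The J kappa segments are shown because Igkj3, compared here with the other 4, had the highest log2 fold change of the light chain rows at 5 CPM for B cells with sgRNA-P1. All are whole segments of GENCODE M21 transcripts matched by symbol, 5′ to 3′. Capitals mark 12 bases from the TTC codon, a stretch that in functional J segments encodes the conserved phenylalanine and glycine motif.
Igkj1: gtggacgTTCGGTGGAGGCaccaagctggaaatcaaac
Igkj2: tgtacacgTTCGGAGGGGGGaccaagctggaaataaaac
Igkj3: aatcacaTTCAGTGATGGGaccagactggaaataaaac
Igkj4: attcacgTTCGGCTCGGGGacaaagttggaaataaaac
Igkj5: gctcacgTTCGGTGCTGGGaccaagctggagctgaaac
Between Igkj3 and the other segments, 2 to 5 of the 12 capital bases differed, with the fewest against Igkj5. Igkj3 is known as a segment that does not contribute to functional mouse kappa chains.

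The starts of 3 lambda constant exons are shown because reads may not have been separable between them. Over their first 300 bases, Iglc2 and Iglc3 were 96% identical, with 12 differences, whereas Iglc1 was 74.0% identical to Iglc2 and 75.3% to Iglc3.
Iglc1: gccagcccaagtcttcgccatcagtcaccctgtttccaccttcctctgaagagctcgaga
Iglc2: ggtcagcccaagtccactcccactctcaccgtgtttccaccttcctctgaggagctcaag
Iglc3: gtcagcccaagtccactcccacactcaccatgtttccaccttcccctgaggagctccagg

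The 3′ ends of 6 V kappa segments follow. The first 5 had the most reads in mock T cells, and Igkv1-117 was the highest V row per kb in mock B cells. Capitals mark the conserved cysteine codon near the end of the segment, after which the V-encoded bases of the third hypervariable loop begin.
Igkv19-93: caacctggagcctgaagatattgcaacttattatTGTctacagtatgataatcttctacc
Igkv4-53: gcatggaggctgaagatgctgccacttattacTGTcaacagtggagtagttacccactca
Igkv1-110: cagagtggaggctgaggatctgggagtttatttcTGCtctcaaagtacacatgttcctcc
Igkv14-111: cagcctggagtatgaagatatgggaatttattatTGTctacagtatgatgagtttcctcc
Igkv10-96: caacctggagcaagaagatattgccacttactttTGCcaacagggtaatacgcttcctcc
Igkv1-117: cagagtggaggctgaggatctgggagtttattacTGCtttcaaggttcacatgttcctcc
All 178 symbols were matched to M21, whose coordinates are not those of the table. The submitters' processing notes name mm39 as a mouse build, and in the deposited table Igkc lay on the plus strand at chr6:70703419-70703950 and Igkj3 on the plus strand at chr6:70700207-70700244. Igkv19-93 lay on the minus strand at chr6:68713281-68713764.

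The summed T cell libraries held 39352816 reads (sgRNA-P1) and 71858511 reads (mock), and the B cell libraries held 49066261 (sgRNA-P1), 28118839 (sgRNA-P2) and 33842813 (mock). Within a group, the 2 columns differed by less than sampling noise, so each pair counts as 1 sample. No comparison can be checked against replicates, and brackets give 95% intervals that cover counting error only. Pou2f1 had 66.1 CPM with sgRNA-P1 and 138 CPM in mock T cells, and 91.1, 86.5 and 157 CPM in B cells with sgRNA-P1, with sgRNA-P2 and mock. A set of 12 B cell markers summed to 14157 and 13966 CPM in B cells with sgRNA-P1 and sgRNA-P2 and 13938 CPM in mock B cells, against 37.2 CPM in sgRNA-P1 T cells and 40.5 CPM in mock T cells. In the B cell libraries, 12 T cell markers summed to 49.0, 50.4 and 49.3 CPM in the same order, against 5894 CPM in sgRNA-P1 T cells and 5954 CPM in mock T cells. Most of these B cell sums was Lck, at 45.2, 46.8 and 46.1 CPM. Both cell type labels thus matched their markers.

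Total light chain RNA was at the same share of reads in the 3 B cell libraries. It made up 0.422% of reads in B cells with sgRNA-P1, 0.423% with sgRNA-P2 and 0.422% in mock B cells. After scaling by trimmed means of M values (TMM), this was 4300 CPM with sgRNA-P1, 4234 CPM with sgRNA-P2 and 4221 CPM in mock B cells. The log2 fold change against mock was 0.03 [0.01, 0.04] for sgRNA-P1 and 0.00 [-0.01, 0.02] for sgRNA-P2. Taken over constant rows alone, the sgRNA-P1 value was 0.07, and over V rows alone it was -0.04. The comparisons of the 2 guides with mock share the mock library. In bulk samples, fewer cells of a type and less RNA per cell cannot be told apart.

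**Figure D1:**
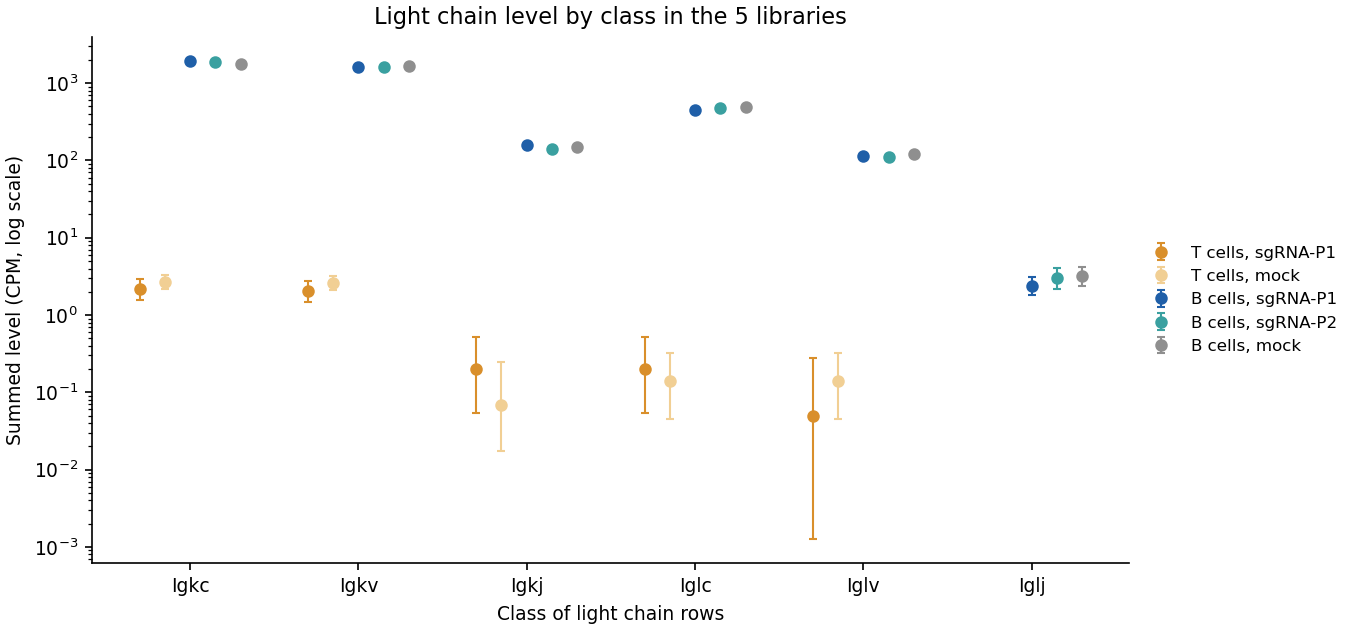
Summed level of each class of light chain rows in the 5 libraries, in CPM on a log axis, with 95% counting intervals. In each class the 3 B cell libraries lie close together, and the T cell libraries, where they have reads, lie below them. No Iglj read was found in T cells.

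Igkc, the constant exon of every kappa chain, was the highest of the light chain rows per kb, at 3643 CPM per kb in B cells with sgRNA-P1, 3514 with sgRNA-P2 and 3329 in mock B cells. Unscaled for length, it had 1938 CPM in B cells with sgRNA-P1, 1870 CPM with sgRNA-P2 and 1771 CPM in mock B cells. In log2 fold change this was 0.13 [0.11, 0.15] for sgRNA-P1 against mock, 0.08 [0.05, 0.10] for sgRNA-P2 against mock and 0.05 [0.03, 0.07] for sgRNA-P1 against sgRNA-P2. As folds, these were 1.09-fold, 1.06-fold and 1.04-fold. Both guide libraries thus lay above the single mock library by more than counting error and by far less than 1.5-fold, the size used here to call a difference.

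The lambda constant exons went the other way in the sgRNA-P1 library. Summed over Iglc1 to Iglc4 they had 444 CPM with sgRNA-P1, 484 CPM with sgRNA-P2 and 497 CPM in mock B cells. In log2 fold change this was -0.16 [-0.21, -0.12] for sgRNA-P1 and -0.04 [-0.09, 0.01] for sgRNA-P2 against mock. Of the sum, Iglc2 held 57.3%, 57.5% and 56.7% in B cells with sgRNA-P1, with sgRNA-P2 and mock, and Iglc1 held 22.9%, 22.4% and 21.7%.

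Iglc3 gave the lowest value of the lambda exons that reached 5 CPM. It had 86.1 CPM with sgRNA-P1, 96.1 CPM with sgRNA-P2 and 105 CPM in mock B cells, with log2 fold changes of -0.29 [-0.38, -0.20] and -0.13 [-0.23, -0.03]. Its near copy Iglc2 had 254 CPM with sgRNA-P1, 278 CPM with sgRNA-P2 and 282 CPM in mock B cells, with log2 fold changes of -0.15 [-0.20, -0.09] and -0.02 [-0.08, 0.04]. Since these exons are so similar, the split of reads between Iglc2 and Iglc3 is uncertain. Iglc1, which is easier to tell apart, had 101 CPM with sgRNA-P1, 108 CPM with sgRNA-P2 and 108 CPM in mock B cells, and its sgRNA-P1 value of -0.09 [-0.17, 0.00] reached 0. Iglc4 had 1.83 CPM with sgRNA-P1, 1.35 CPM with sgRNA-P2 and 2.19 CPM in mock B cells.

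Per kb of constant row, the kappa to lambda ratio was 4.36 [4.27, 4.45] in B cells with sgRNA-P1, 3.87 [3.76, 3.97] with sgRNA-P2 and 3.55 [3.46, 3.64] in mock B cells. The 3 intervals did not overlap. The row of Iglc2 is 612 bases long and its M21 transcript 458, so the size of the ratio depends on the length used. The log2 difference in this ratio was 0.30 [0.25, 0.34] for sgRNA-P1 against mock, 0.12 [0.07, 0.18] for sgRNA-P2 against mock and 0.17 [0.12, 0.22] for sgRNA-P1 against sgRNA-P2. Lambda accounted for 18.6% of constant exon reads with sgRNA-P1, 20.5% with sgRNA-P2 and 21.9% in mock B cells.

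The V rows did not show this order. Per kb of V row, the kappa to lambda ratio was 14.9 [14.4, 15.5] with sgRNA-P1, 15.04 [14.3, 15.8] with sgRNA-P2 and 14.5 [13.9, 15.2] in mock B cells. The log2 difference against mock was 0.04 [-0.05, 0.12] for sgRNA-P1 and 0.05 [-0.05, 0.15] for sgRNA-P2. A difference of the size seen between the constant exons in the sgRNA-P1 comparison, 0.30, lies outside the interval from the V rows. For sgRNA-P2, the constant exon value of 0.12 lies inside the V row interval, so the V rows do not separate the measures there. The lambda V rows also lack Iglv3, which had no read. The higher ratio with sgRNA-P1 was thus seen in the constant exons and not in the V rows as counted. Whether it reflects the number of cells with either chain was not tested.

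**Figure D2:**
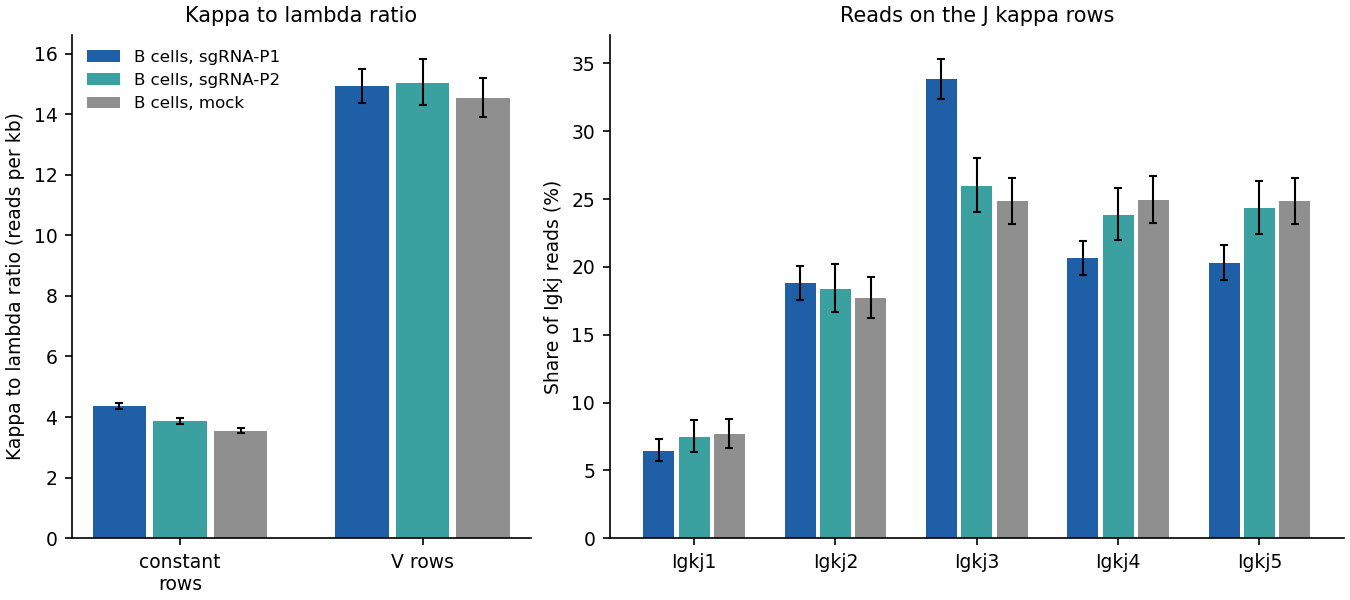
Left, kappa to lambda ratio in reads per kb from constant rows and from V rows in B cells; right, share of Igkj reads on each J kappa row in percent; black lines are 95% counting intervals. The ratio from constant rows is 4.36, 3.87 and 3.55 in B cells with sgRNA-P1, with sgRNA-P2 and mock, whereas the V row intervals overlap, and Igkj3 stands out at 33.8% of Igkj reads with sgRNA-P1.

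The lambda V rows were led by Iglv1, which pairs with Iglj1 and Iglc1 or with the Iglc3 cluster. It had 87.9 CPM with sgRNA-P1, 84.9 CPM with sgRNA-P2 and 90.4 CPM in mock B cells, which was 76.7%, 75.4% and 75.2% of Iglv reads. Iglv2 had 26.6 CPM with sgRNA-P1, 27.6 CPM with sgRNA-P2 and 29.8 CPM in mock B cells. Neither row differed from mock beyond its counting interval with either guide. Summed over these rows, the log2 fold change against mock was -0.07 [-0.15, 0.01] for sgRNA-P1 and -0.10 [-0.19, -0.00] for sgRNA-P2.

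Iglv3, Iglj2 and Iglj3 had no read in any library, and each overlaps another row of the table. Iglj2 lies wholly inside the row of Iglc2, on the same strand. Iglj3 overlaps 2010309G21Rik on the opposite strand, which had 32.7 CPM with sgRNA-P1, 34.2 CPM with sgRNA-P2 and 35.1 CPM in mock B cells and also overlaps Iglc3. Iglv3 overlaps Gm56600 on the opposite strand, which had 67.8, 65.6 and 66.7 CPM in B cells with sgRNA-P1, with sgRNA-P2 and mock, against 0.0250 CPM in sgRNA-P1 T cells and no read in mock T cells. The strand setting of the counting is not known from the sources used here, so the zeros of these rows say nothing of their use, and the lambda V sum lacks Iglv3. In all, 6 of the 178 rows overlapped another row. Of the other J lambda rows, Iglj3p had 2.12 CPM with sgRNA-P1, 2.95 CPM with sgRNA-P2 and 2.96 CPM in mock B cells, and Iglj1 and Iglj4 had at most 0.249 CPM.

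Among the J kappa rows, Igkj3 was the member with the largest difference. It had 54.3 CPM in B cells with sgRNA-P1, 36.1 CPM with sgRNA-P2 and 36.6 CPM in mock B cells. For Igkj3 the log2 fold change was 0.57 [0.43, 0.71] for sgRNA-P1 against mock, -0.02 [-0.20, 0.15] for sgRNA-P2 against mock and 0.59 [0.44, 0.74] for sgRNA-P1 against sgRNA-P2. The sgRNA-P1 library was thus alone in being high. The difference between the guides was no longer past 1.5-fold when libraries were scaled by total reads or by DESeq2 size factors, or after a trend over GC content and length was removed, which left 0.49. Igkj3 took 33.8% of Igkj reads with sgRNA-P1, 26.0% with sgRNA-P2 and 24.8% in mock B cells.

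Igkj2, which can serve in functional kappa chains, had 30.2 CPM with sgRNA-P1, 25.5 CPM with sgRNA-P2 and 26.1 CPM in mock B cells, with a log2 fold change of 0.21 [0.04, 0.38] for sgRNA-P1 against mock. Igkj1, Igkj4 and Igkj5 had log2 fold changes of -0.13, -0.15 and -0.17 in that comparison and of -0.12, -0.16 and -0.12 for sgRNA-P2 against mock. With Igkj3 set aside, Igkj1, Igkj2, Igkj4 and Igkj5 took 9.74%, 28.4%, 31.2% and 30.7% of J kappa reads with sgRNA-P1. In mock B cells they took 10.2%, 23.6%, 33.2% and 33.0%. Igkj1 was the lowest of the 5 per kb, at 272 CPM per kb with sgRNA-P1, 273 with sgRNA-P2 and 298 in mock B cells, against 1430, 949 and 964 CPM per kb for Igkj3. Each J row is about as long as the segments printed above, shorter than a usual read, so a count here depends on how reads across the V to J and J to constant joins were placed.

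The Igkv rows together had 1641 CPM in B cells with sgRNA-P1, 1627 CPM with sgRNA-P2 and 1681 CPM in mock B cells. The log2 fold change was -0.04 [-0.06, -0.01] for sgRNA-P1 against mock and -0.05 [-0.07, -0.02] for sgRNA-P2 against mock. Both guide libraries thus had a slightly lower V sum and a higher Igkc than the single mock library, which the comparisons share. Reads were spread unevenly over the 160 rows. The 5 rows highest per kb held 24.1% of Igkv reads in mock B cells, and the 60 rows that M21 types as pseudogenes held 1.19% in each of the 3 libraries. Of the 66 Igkv rows at 5 CPM, 18 had another V segment at least 95% identical and 46 had one at least 90% identical, so single values for these rows are uncertain.

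V kappa segments lie upstream of the J segments in both orientations, so that some join by deletion and some by inversion. Igkv rows on the strand of the J segments held 45.6% of Igkv reads with sgRNA-P1, 46.4% with sgRNA-P2 and 47.2% in mock B cells. The 53 rows nearest to Igkj1, from 18.4 to 1041 kb, held 40.1% with sgRNA-P1, 40.0% with sgRNA-P2 and 40.4% in mock B cells. The next 53 rows, out to 1967 kb, held only 14.9%, 14.8% and 14.5%, and the farthest 54 rows, out to 3166 kb, held 44.98%, 45.2% and 45.1%. The middle rows therefore held the lowest share of Igkv reads in each library. Many rows of that stretch are typed as pseudogenes, and their part in its low share was not tested.

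**Figure D3:**
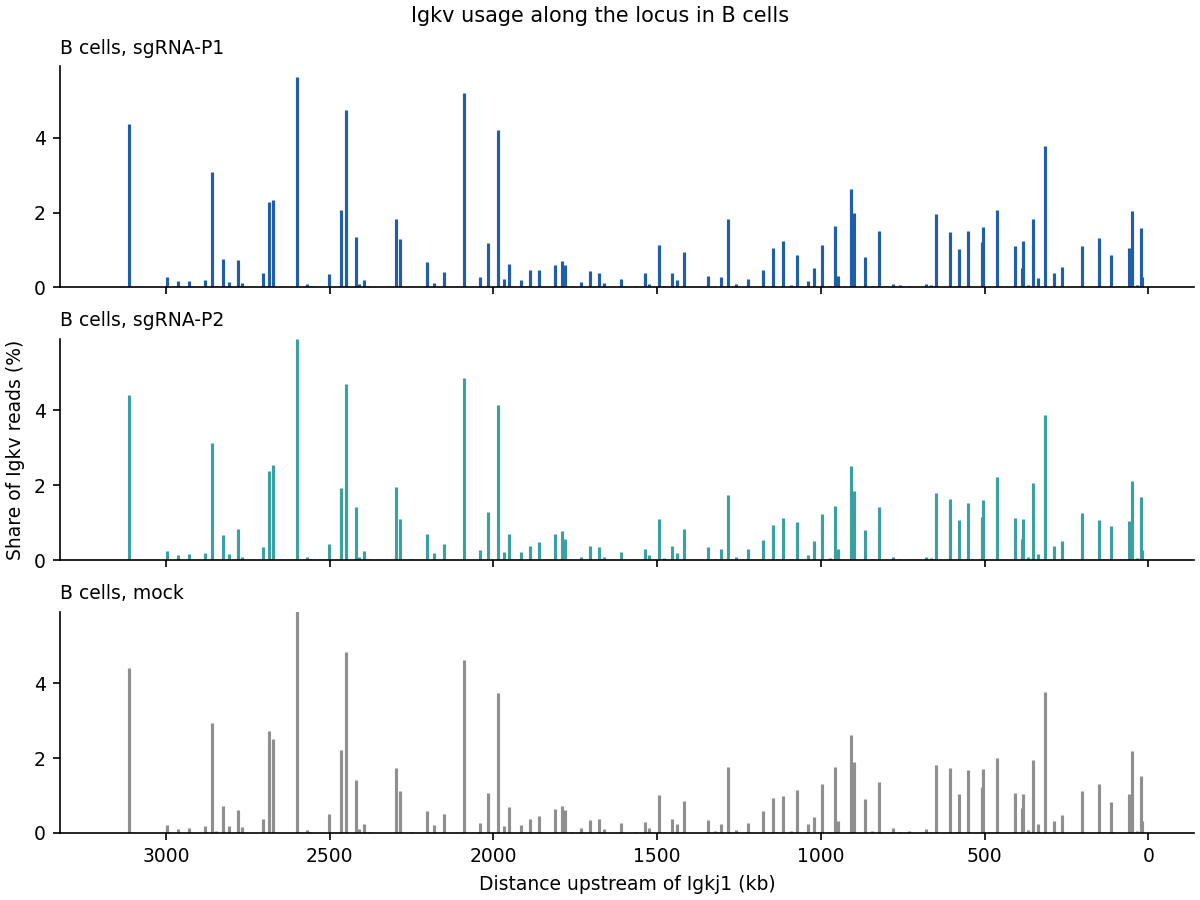
Share of Igkv reads on each Igkv row, in percent, by its distance upstream of Igkj1 in kb, with a panel for each B cell library. The 3 profiles have the same high rows, and the shares of the farthest 54 rows are 44.98%, 45.2% and 45.1% in B cells with sgRNA-P1, with sgRNA-P2 and mock.

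By family, Igkv1 rows held 16.3% of Igkv reads with sgRNA-P1, 16.5% with sgRNA-P2 and 17.3% in mock B cells. The 33 rows of Igkv4, the family with the most rows, held 13.3%, 13.1% and 12.9% in the same order, and the 9 rows of Igkv6 held 12.3%, 12.6% and 12.2%. Igkv10 was higher with both guides, at 6.66% with sgRNA-P1 and 6.43% with sgRNA-P2 against 5.95% in mock B cells, with overlapping intervals for sgRNA-P2 and mock. The repertoire of V rows as a whole was measured by the share of Igkv reads that would have to move to another row to make 2 libraries equal. This distance was 4.55% for sgRNA-P1 against mock, where counting error alone gave 2.73%. It was 3.85% for sgRNA-P2 against mock, with 3.11% from counting error, and 3.38% for sgRNA-P1 against sgRNA-P2, with 2.91%.

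Igkv1-117 was the highest V row per kb in mock B cells and was lower with both guides. It had 92.4 CPM with sgRNA-P1, 96.3 CPM with sgRNA-P2 and 110 CPM in mock B cells, which is 229, 238 and 273 CPM per kb. For Igkv1-117 the log2 fold change was -0.25 [-0.34, -0.16] for sgRNA-P1 and -0.19 [-0.29, -0.09] for sgRNA-P2. Igkv17-121 had the same order, at 37.4 CPM with sgRNA-P1, 38.7 CPM with sgRNA-P2 and 45.7 CPM in mock B cells, with log2 fold changes of -0.29 [-0.43, -0.15] and -0.24 [-0.40, -0.08]. These are the members of the 12 highest V rows per kb whose intervals lay below 0 in both comparisons, which share the mock library. Each has a near copy among the 12, Igkv1-110 (96.8% identical to Igkv1-117) and Igkv17-127 (97.5% identical to Igkv17-121). The intervals of both copies held 0 with both guides, and the split of reads within these pairs is uncertain.

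Igkv10-96 and Igkv19-93 lay on the other side. Igkv10-96 had 85.2 CPM with sgRNA-P1, 79.3 CPM with sgRNA-P2 and 77.5 CPM in mock B cells, with log2 fold changes of 0.14 [0.03, 0.24] and 0.03 [-0.08, 0.15]. Igkv19-93 had 69.0 CPM with sgRNA-P1, 67.2 CPM with sgRNA-P2 and 62.6 CPM in mock B cells, with log2 fold changes of 0.14 [0.03, 0.25] and 0.10 [-0.03, 0.23]. Igkv9-120 was at -0.15 [-0.29, -0.01] for sgRNA-P1 and -0.03 [-0.19, 0.13] for sgRNA-P2. The other 7 of the 12 rows, among them Igkv1-110, Igkv1-135 and Igkv6-15, had intervals that held 0 with both guides.

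Of the rows with lower levels, Igkv2-112 had the lowest value with sgRNA-P1. It had 5.81 CPM with sgRNA-P1, 6.93 CPM with sgRNA-P2 and 8.45 CPM in mock B cells, with a log2 fold change of -0.54 [-0.89, -0.19] for sgRNA-P1 and -0.28 [-0.66, 0.10] for sgRNA-P2. Igkv4-53 followed, at 14.2 CPM with sgRNA-P1, 16.5 CPM with sgRNA-P2 and 19.3 CPM in mock B cells, with log2 fold changes of -0.45 [-0.67, -0.22] and -0.22 [-0.47, 0.03]. Igkv6-20 and Igkv4-57-1 were at -0.36 and -0.32 with sgRNA-P1. At the upper end Igkv12-89, Igkv4-80, Igkv4-55 and Igkv4-74 were at 0.31, 0.30, 0.29 and 0.27, and of these the interval of Igkv4-55 alone, [0.08, 0.51], lay above 0.

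With sgRNA-P2 against mock, the lowest values were those of Igkv12-46 at -0.34 [-0.54, -0.14] and Igkv3-10 at -0.34 [-0.58, -0.10]. Igkv12-46 had 23.4 CPM with sgRNA-P2 and 29.7 CPM in mock B cells, and Igkv3-10 had 17.4 CPM with sgRNA-P2 and 21.9 CPM in mock B cells. Igkv9-124 was highest, at 0.39 [0.09, 0.70], with 13.4 CPM with sgRNA-P2 and 10.2 CPM in mock B cells. Igkv3-10 was also the V row with the highest value of sgRNA-P1 against sgRNA-P2, 0.33 [0.11, 0.56], with 21.9 CPM with sgRNA-P1. With 66 rows compared, some of these intervals can miss 0 from counting alone.

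Among the 77 rows at 5 CPM, none passed 1.5-fold against mock with either guide. The count was 0 with sgRNA-P1, where 0.735% of all genes at that level did, and 0 with sgRNA-P2, where 0.278% did. Between sgRNA-P1 and sgRNA-P2, 1 of 75 rows passed, Igkj3, against 0.418% of all genes. A count of 0 or 1 among so few rows cannot be set apart from these backgrounds. The median log2 fold change was -0.03 with sgRNA-P1, with 33 rows higher and 44 lower. Over all genes at 5 CPM it was -0.01, with 4833 higher and 5229 lower. With sgRNA-P2 the light chain median was -0.04, with 27 rows higher and 50 lower. Over all genes it was -0.00, with 4867 higher and 5194 lower. After the trend over GC content and length was removed, the light chain medians were 0.03 with sgRNA-P1 and -0.003 with sgRNA-P2. The sign of the sgRNA-P1 median thus depended on this step. Within 1.1-fold of mock lay 50.6% of the light chain rows and 65.1% of all genes with sgRNA-P1, and 70.1% and 79.9% with sgRNA-P2. Intervals above 0 and below 0 numbered 6 and 13 of the 77 with sgRNA-P1, or 24.7%, where 33.2% of all genes at 5 CPM had an interval off 0. They numbered 2 and 6 with sgRNA-P2, or 10.4% beside 11.5% of all genes, and 5 and 2 of 75 between sgRNA-P1 and sgRNA-P2, or 9.33% beside 23.2%. In all 3 comparisons the share off 0 was no larger than that of all genes. Whether an interval holds 0 depends on the reads of a row, and the sets were not matched for level. These shares therefore do not show that light chain rows varied less than other genes.

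With the limit lowered to 1 CPM, more rows passed 1.5-fold, all of them but Igkj3 below 5 CPM. Of 106 rows at 1 CPM or more, which include those at 5 CPM, 2 passed with sgRNA-P1, where 4.29% of all genes did. These were Igkv1-99, with 1.89 CPM with sgRNA-P1 and 3.49 CPM in mock B cells and a log2 fold change of -0.88 [-1.46, -0.29], and Igkv7-33 at 1.02 [-0.12, 2.30]. With sgRNA-P2, 3 of 105 passed, where 3.86% of all genes did, namely Igkv9-123 at -0.85 [-1.65, -0.06], Igkv4-51 at -0.69 [-1.33, -0.07] and Iglc4 at -0.68 [-1.58, 0.14]. Between sgRNA-P1 and sgRNA-P2, 4 of 106 passed, where 3.83% of all genes did, namely Igkj3, Igkv1-99 at -0.71, Igkv4-73 at -0.63 and Igkv8-16 at 0.64. These shares are near or below those of all genes, and the rows were named after their values were seen.

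**Figure D4:**
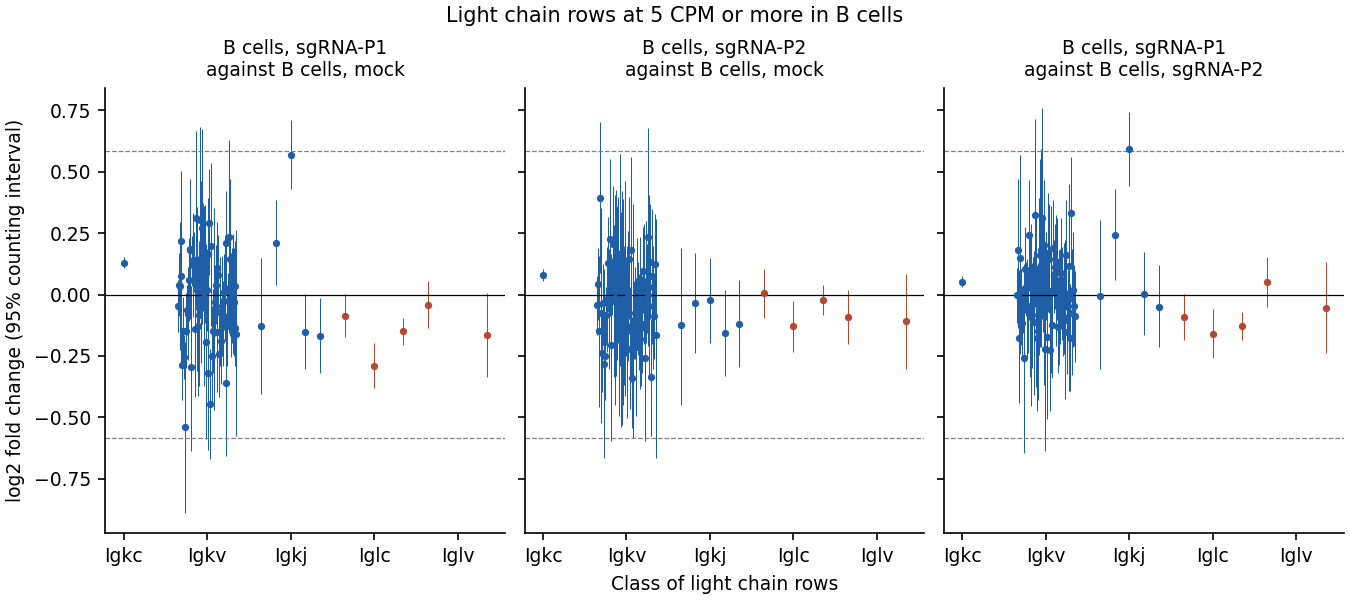
Log2 fold change of each light chain row at 5 CPM or more in the 3 comparisons of B cells, by class, with 95% counting intervals; dashed lines mark 1.5-fold and kappa rows are blue, lambda rows red. Points lie between the dashed lines except for Igkj3 in the comparison of sgRNA-P1 with sgRNA-P2, at 0.59.

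A fit was also made that took both guide libraries as a group of 2 against the 1 mock library. In edgeR's quasi-likelihood test with Benjamini-Hochberg adjustment, 0 of 125 light chain rows were called at an adjusted p under 0.05, where 0.0182% of all genes were. With so few genes called, a count of 0 among the members says nothing about them, and the smallest adjusted p was 0.929. At an unadjusted p under 0.05 there were 8 of the 125 rows, beside 5.28% of all genes. Fits over all 5 libraries, with no filter and with DESeq2 called 0 light chain rows too, where they called 0.0284%, 0.226% and 0.0121% of all genes. Pou2f1 itself had a log2 fold change of -0.82 and an adjusted p of 5.22e-05 in this edgeR fit, which has 1 residual degree of freedom.

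Genes that act with light chains were described next to them, as a list of heavy chain, receptor, surrogate light chain, recombination, transcription factor and chaperone genes. Of 31 such genes in the table, 27 reached 5 CPM in B cells. With sgRNA-P1, 14 were higher and 13 lower than mock, with a median log2 fold change of 0.01. With sgRNA-P2, 10 were higher and 17 lower, with a median of -0.02. Over all genes at 5 CPM, 4833 were higher and 5229 lower with sgRNA-P1, and 4867 and 5194 with sgRNA-P2. Pou2f1, the target, was the single gene of the list past 1.5-fold with each guide, at -0.78 [-0.86, -0.70] and -0.86 [-0.96, -0.76].

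The heavy chain partner Ighm had 5773 CPM with sgRNA-P1, 5768 CPM with sgRNA-P2 and 5605 CPM in mock B cells, with log2 fold changes of 0.04 [0.03, 0.05] and 0.04 [0.03, 0.05]. The octamer factor Pou2f2, which encodes Oct-2, had 361 CPM with sgRNA-P1, 347 CPM with sgRNA-P2 and 338 CPM in mock B cells. Pou2af1 had 636, 621 and 621 CPM in the same order. Mzb1, a chaperone of antibody assembly, had 9.94 CPM with sgRNA-P1, 12.3 CPM with sgRNA-P2 and 12.6 CPM in mock B cells, with a log2 fold change of -0.34 [-0.61, -0.07] for sgRNA-P1. Ebf1, a B cell transcription factor, was at 0.19 [0.14, 0.24] with sgRNA-P1 and 0.03 [-0.03, 0.09] with sgRNA-P2.

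Plasma cells make far more light chain RNA per cell than other B cells, so their markers were read beside the light chains. The 10 listed markers summed to 722 CPM with sgRNA-P1, 713 CPM with sgRNA-P2 and 711 CPM in mock B cells. Most of this was Irf4, at 447, 438 and 429 CPM, which other B cells also express. Jchain, which joins secreted antibodies into polymers, had 103 CPM with sgRNA-P1, 99.0 CPM with sgRNA-P2 and 106 CPM in mock B cells, and Tnfrsf17 had no read with either guide and 0.0296 CPM in mock B cells. Sdc1 had 15.5 CPM with sgRNA-P1, 16.5 CPM with sgRNA-P2 and 19.7 CPM in mock B cells. The part of such cells in the light chain levels was not tested.

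In T cells, light chain reads were near the limit of detection. T cells with sgRNA-P1 had 186 light chain reads, 4.66 CPM [3.76, 5.71], and mock T cells had 407, 5.64 CPM [4.91, 6.49]. The log2 fold change was -0.27 [-0.65, 0.08], so a difference was not detectable at this depth. Igkc had 2.15 CPM with sgRNA-P1 and 2.66 CPM in mock T cells, a log2 difference of -0.30 [-0.86, 0.23]. Lambda constant exons had 8 reads with sgRNA-P1 and 10 in mock T cells.

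Against mock B cells, the light chain total of mock T cells was 0.134% [0.116, 0.154] of the B cell level, and Igkc was 0.150%. All 77 rows at 5 CPM in mock B cells were lower in mock T cells. None of them reached 5 CPM in T cells, so this direction was fixed by the limit and is not a result. Of all genes at 5 CPM in either library, 18.4% were at least 1.5-fold lower. Of the 77 rows, 52 had no read in mock T cells. Igkv1-117 was among these, against 110 CPM in mock B cells. Rows under a floor of 3 read pairs, 0.0832 CPM in mock T cells, were set to that floor. The median log2 fold change over the 77 rows was then -7.76. Without the floor, the median was -10.0 over the 77 rows and 0.02 over all genes at 5 CPM in either library. With 52 of the 77 rows at no read, both light chain medians depended on the floor or the prior and on the mock B cell level. They are not measured sizes of a T cell difference. Genes of the whole set could pass the limit through either library, so their median is not a matched reference. Values of B cell markers in mock T cells, given beside these, were 0.0343% of the mock B cell level for Ms4a1, 0.223% for Cd79a and 0.291% for the sum of the 12 markers. Single markers lay between 0.0126% for Fcrla and 2.76% for Blk, which held 45.9% of the summed marker level in mock T cells. Without Blk, left out after its value was seen, the sum was 0.165%. None of the 12 was at 0 in either T cell library. The part of B cells or of their RNA in the T cell values was not tested.

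The V kappa reads in T cells had a usage unlike that of B cells. Igkv19-93, the sole row of its family, had 43 of 82 Igkv reads in T cells with sgRNA-P1, 52.4% [37.4, 69.3], and 98 of 190 in mock T cells, 51.6% [41.1, 62.0]. In B cells it had 4.21% with sgRNA-P1, 4.13% with sgRNA-P2 and 3.73% in mock B cells. Its level in mock T cells was 1.36 CPM, which is 2.17% [1.59, 2.89] of its level in mock B cells. All Igkv rows together, to which it gave 98 of the 190 reads, were at 0.157%. The intervals of the T and B cell libraries did not overlap for its share of Igkv reads. Because this row was shown for having the most reads in mock T cells, a high value there was built in. That rule did not use the T cell library with sgRNA-P1.

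Igkv4-53 was also high in mock T cells, with 24 reads or 12.6% [6.70, 21.03] of Igkv reads against 1.15% in mock B cells. In T cells with sgRNA-P1 it had 3 reads, 3.66% [0.596, 16.5]. Igkv1-110 had 20 reads with sgRNA-P1, 24.4% [12.4, 40.3], and 21 in mock T cells, 11.1% [5.92, 19.8], against 4.82% in mock B cells. Igkv14-111 had 5 reads with sgRNA-P1 and 19 in mock T cells, and Igkv10-96 had 2 and 8. These 5 rows, chosen for their level in mock T cells, held 89.0% of Igkv reads in sgRNA-P1 T cells and 89.5% in mock T cells, against 16.5% in mock B cells. In both T cell libraries the top row was the same, and the reads were few.

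**Figure D5:**
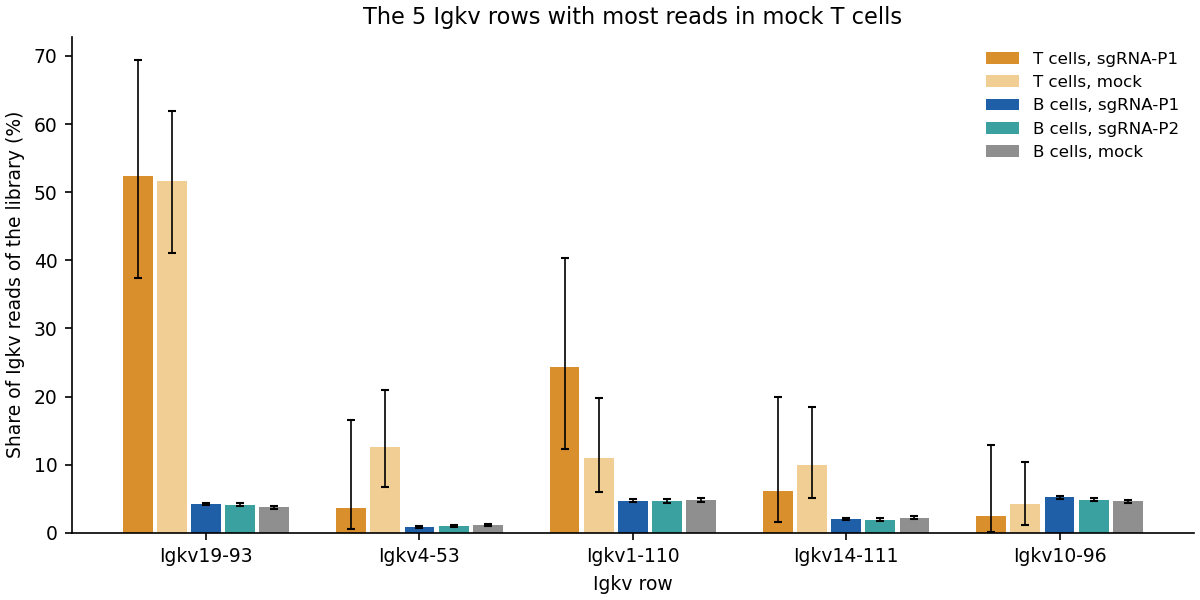
Share of the Igkv reads of each library, in percent, for the 5 Igkv rows with most reads in mock T cells, with 95% counting intervals. Igkv19-93 holds 52.4% and 51.6% in T cells with sgRNA-P1 and mock, against 4.21%, 4.13% and 3.73% in B cells with sgRNA-P1, with sgRNA-P2 and mock.

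By position, the farthest 54 Igkv rows held 86.6% [73.8, 95.9] of Igkv reads in sgRNA-P1 T cells and 80.5% [71.7, 88.4] in mock T cells, against 45.1% in mock B cells. Igkv19-93, Igkv1-110, Igkv14-111 and Igkv10-96 lie in that stretch and Igkv4-53 does not. The usage distance between mock T and mock B cells was 75.6%, with 34.7% from counting error at this number of reads, and between T cells with sgRNA-P1 and B cells with sgRNA-P1 it was 77.3%, with 52.3%. Between the 2 T cell libraries it was 21.8%, with 20.4% from counting error. Low as they are, the T cell reads thus had a composition that differed from the B cells by more than counting error and between T cell libraries by little more than that.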

How the data were processed

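Light chain rows were taken by symbol from 1 deposited table of read counts per gene, which the authors made with HISAT2 and featureCounts per the submitters' processing notes. The notes name the builds hg38 and mm39. The sources used here do not give versions, the strand setting or the treatment of reads with several matches. The members, gene lists and named rows were chosen with earlier results of these data known. Rows were named by class (all constant, J and Iglv rows), by level (the 12 highest Igkv rows per kb in B cells and the 5 highest in mock T cells) and by size (the 4 highest and 4 lowest other Igkv rows per comparison). Further rows, such as overlapping ones, were named after their values were seen.

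The 2 columns of each group matched 1 library divided in a fixed proportion, with a mean chi-square per gene of 0.00229 to 0.00283, and were summed to 1 sample. No p-value is given for single comparisons. Counts were scaled by TMM (edgeR 4.0.16, R 4.3.3). Log2 fold changes used a prior of 1 read, and 5 CPM in the higher group with a 1.5-fold difference set the size rule. Exact 95% intervals (Clopper-Pearson for shares) were computed on read pairs and cover counting error only. Of low totals, 72.0 to 74.8% were odd, and so even once 1 read, taken as lost to rounding, was added back. Ratios have intervals on the log scale. A gene without reads had a floor of 3 read pairs. The edgeR quasi-likelihood model and DESeq2 1.42.0 were run over all genes and tested on simulated data. Alternatives were other scalings, CPM limits, row classes, left-out columns and a trend over GC content and length. Sequences came from GENCODE M21 (GRCm38) transcripts.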

Additional observations from a re-analysis of the deposited data

Results flagged for a closer look

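The total light chain level and Igkc lay on opposite sides of 0 in T and B cells for sgRNA-P1 against mock. The log2 fold change of the total was -0.27 in T cells and 0.027 in B cells. That of Igkc was -0.30 in T cells and 0.13 in B cells. Both T cell intervals reached 0, and the difference between the cell types was not tested.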

How the results depend on the processing

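The light chain total moved with the rows that were summed. For sgRNA-P1 against mock B cells the log2 fold change was 0.070 over constant rows alone, -0.037 over V rows alone and 0.0017 under scaling by total reads. For sgRNA-P2 against mock B cells it was 0.053 over constant rows alone and -0.051 over V rows alone. For sgRNA-P1 against sgRNA-P2 it was -0.0034 under scaling by total reads, and for mock T against mock B cells it was -9.34 over V rows alone. From V rows, the log2 kappa to lambda difference was 0.038 for sgRNA-P1 against mock B cells, 0.050 for sgRNA-P2 against mock B cells, -0.012 for sgRNA-P1 against sgRNA-P2, and 0.47 for mock T against mock B cells. In T cells with sgRNA-P1 against mock T cells it was -0.76 from constant rows and turned to 1.05 from V rows, on few reads. With Iglc1 as the lambda row it was 0.22 for sgRNA-P1 against mock B cells, and it could not be computed for T cells with sgRNA-P1, where Iglc1 had no read. At 1 CPM, 2 rows passed 1.5-fold for sgRNA-P1 against mock B cells (4.29% of all genes did), 3 for sgRNA-P2 against mock B cells (3.86%) and 4 for sgRNA-P1 against sgRNA-P2 (3.83%). For the last comparison 0 passed under total reads, DESeq2 size factors or the GC content and length trend. With that trend removed, the median of the light chain rows for sgRNA-P1 against mock B cells went from -0.03 to 0.03. At 20 CPM, 38 rows were lower in mock T cells than in mock B cells, where 15.6% of all genes were. These rows passed the limit through mock B cells alone, so their direction was fixed by it. Of 123 named values, 22 changed sign under some alternative, all within 0.13 of 0. The causes were not tested. No paired analysis was possible because the columns of a group are 1 divided library. Leaving out a column therefore tests the division, not replicates. Few reads limit the T cell values.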
